A study of Mus musculus with 4 samples.

Results

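T cell receptor gene segments were described in RNA sequencing libraries of activated lung group 2 innate lymphoid cells (ILC2s). Members were all rows of the deposited count table annotated as a T cell receptor variable (V), diversity (D), joining (J) or constant (C) gene, which gave 180 of the 22558 genes in the table. They comprised 135 V segments, 37 J segments and 8 C genes, and 0 rows carried the D annotation. The alpha locus on chromosome 14 held 131 of them, the beta locus on chromosome 6 held 30, the gamma locus on chromosome 13 held 13, and the delta locus, which lies inside the alpha locus, held 6. V segments that both the alpha and the delta chain can use were counted with alpha.

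The cells came from lungs of 6-week-old mice, in 2 libraries from wild-type (WT) C57BL/6 mice and 2 from ICAM-1 deficient mice on the same background (B6.129S4-Icam1tm1Jcgr/J), labelled ICAM-1 KO. Each library was a pool of 4 mice. Every mouse was given rmIL-33 intranasally (3 challenges of 0.5 µg), and lungs were taken on day 4. ILC2s were sorted to over 95% purity as CD45+ ST2+ CD127+ cells, after exclusion of cells stained for TCRβ, TCRγδ, CD3ε, CD5, CD4 and markers of B cells, myeloid cells, mast cells and red cells. Each library was made from 10 ng of RNA.

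The depth was 24796148 to 28782471 counts per library. Icam1, the gene targeted in the knockout, was counted at 2579 and 2630 in WT and at 2812 and 3453 under the knockout label (log2 fold change 0.33, adjusted p = 0.0745 from the quasi-likelihood test of edgeR, with Benjamini-Hochberg adjusted values here and below). Its RNA was not lower under the knockout label, and a count per gene does not show which exons the reads covered, so these 2 are called KO-labelled libraries throughout. Il1rl1, which encodes ST2, a marker used in the sort, was abundant in all 4 libraries. It had 18964, 22989, 22311 and 23849 counts in WT 1, WT 2 and KO-labelled 1 and 2. With 2 pools per label, adjusted p-values measure the spread between pools and not between animals, and an exact permutation test of 2 against 2 cannot give a two-sided p below 0.333.

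A T cell receptor chain is built by joining 1 V segment to a J segment, with a D segment between them in the beta and delta chains, and RNA splicing then attaches the joined exon to a C gene. Alpha pairs with beta and gamma pairs with delta, and either pair reaches the cell surface only together with the CD3 chains. ILC2s are defined as lymphocytes without such an antigen receptor. A C gene can also be transcribed without a joined V segment, and counts per gene do not show whether a read on a C gene belonged to a transcript that carried a V segment.

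Receptor segments took 20187 and 21342 counts in WT and 27889 and 33541 in the KO-labelled libraries. These were 0.0741% and 0.0742% of all counts in WT against 0.112% and 0.122% in the KO-labelled libraries, so the groups did not overlap. After scaling each library by the factor of the authors' normalized table, the ratio of the KO-labelled mean to the WT mean was 1.52. The ratio was 3.00 for alpha segments, 1.33 for beta, 1.13 for gamma and 1.58 for delta. Counts were concentrated on the C genes, which held 91.8% and 88.7% of all receptor counts in WT and 83.9% and 83.4% in the KO-labelled libraries. The alpha locus took 11.7% and 16.0% of receptor counts in WT and 25.9% and 28.8% in the KO-labelled libraries. Over the same libraries the gamma locus went the other way, from 25.9% and 23.1% to 19.7% and 17.1%. The beta share was 60.4% and 59.0% in WT and 52.4% and 52.3% in the KO-labelled libraries, and the delta share lay between 1.79% and 2.07% in all 4.

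**Figure D1:**
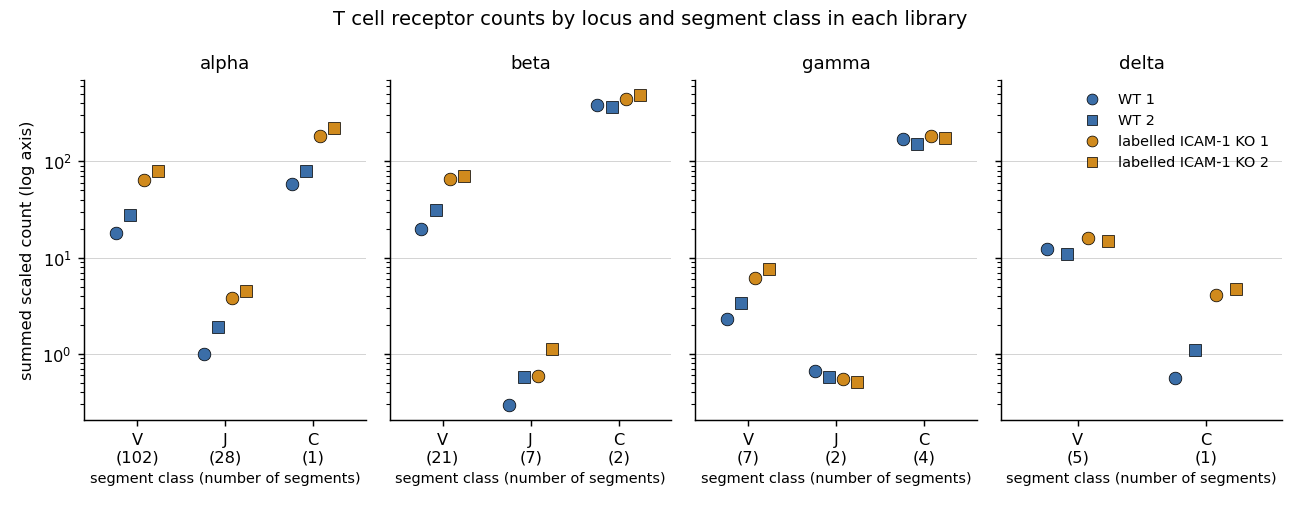
Summed scaled counts (expected count times the authors' factor, log axis) of V, J and C segments of each locus, 1 point per library, with the number of segments in parentheses. Both KO-labelled libraries lay above both WT libraries in every class except gamma J, where both lay below; the ratio of means was 2.97 for the alpha C gene, 1.24 for the beta C genes and 1.11 for the gamma C genes.

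A count of at least 1 was found on 123 and 152 segments in the WT libraries and on 168 and 169 in the KO-labelled libraries. Most segments were sparse: the highest count in any library was under 3 for 5 segments, from 3 to under 10 for 50, from 10 to under 50 for 86, from 50 to under 500 for 34, and 500 or more for 5. The latter were Trac, Trbc1, Trbc2, Tcrg-C1 and Tcrg-C4, all C genes. Trdv5 had 0 counts in all 4 libraries. After scaling, both KO-labelled libraries lay above both WT libraries for 122 of the 180 segments (67.8%), beside 27.3% of all genes with at least 1 count in some library. Both WT libraries lay above both KO-labelled libraries for 2 segments, Trav15d-1-dv6d-1 and Trgj4, beside 22% of all such genes. Segments are not independent of each other: 26 V segments shared their counts with another V segment, and 30 of the 135 V segments had a coding sequence identical to that of another V segment, so that reads are divided among copies.

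The abundance filter of the study's methods left 16 of the 180 segments to test, 1 alpha V, 7 beta V, 1 delta V and 7 C genes. Passing required a mean normalized count of 1 or more and a sum of 10 or more, which no J segment and few V segments reached. At a change of 2-fold or more with an adjusted p under 0.05, 5 segments were higher in the KO-labelled libraries (Trac, Trdc, Trbv13-2, Trbv5 and Trbv13-1), where 4.94% of all 11711 genes tested were called in that direction. The count of 5 fell to 1 without WT 1, to 2 without WT 2 and to 1 (Trac) with no filter on low counts. Trbc1 made a sixth with an adjusted p under 0.05 but less than a 2-fold change, a criterion met in that direction by 8.8% of genes. The count of segments called lower was 0, as was the count lower at an unadjusted p under 0.05 with edgeR, and DESeq2 and limma also called 0, where 0.538% of all genes tested were called lower by edgeR. Because a segment with few counts in WT could pass the filter only through the KO-labelled libraries, these counts describe the segments tested and not the whole family. Among the called segments this held for Trdc, Trbv5 and Trbv13-1. Their normalized means in WT were 0.867, 1.76 and 1.58, too low to reach the summed minimum of 10 at that level.

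**Figure D2:**
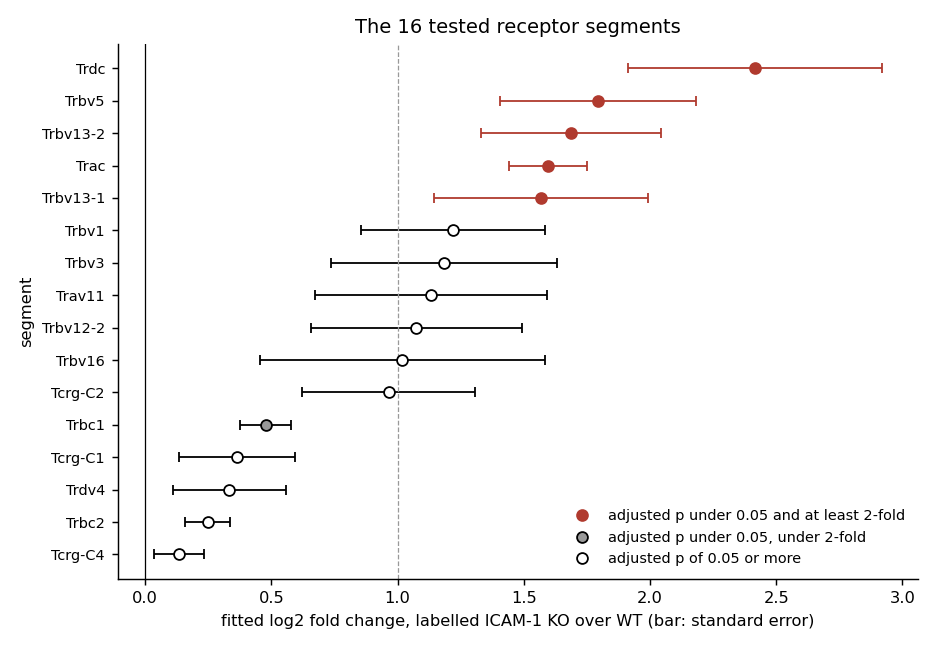
Fitted log2 fold change of the KO-labelled over the WT libraries for the 16 segments tested, with the standard error of the edgeR fit as bars and the 2-fold line dashed. Trac, at 1.60, had the smallest standard error of the 5 called segments, and the gamma C gene Tcrg-C4, at 0.13, lay nearest to 0.

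Trac, the single constant gene of the alpha chain, lies on the plus strand of chromosome 14 of mm10 from 54220521 to 54224206. The WT libraries had 1779 and 2485 counts on it and the KO-labelled libraries 5278 and 7047, with no overlap. This gave a normalized count of 68.7 ± 14.1 in WT and 204 ± 29.2 in the KO-labelled libraries (mean ± SD, n = 2 each). The fitted log2 fold change was 1.60 (SE 0.155, adjusted p = 0.00067, edgeR's quasi-likelihood test over all genes tested). In all 12 alternative fits of this test the adjusted p of Trac stayed under 0.05, and leaving out each library in turn gave a log2 fold change from 1.40 to 1.82.

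Alpha V segments, which encode the part of the alpha chain that contacts antigen, summed to 547 and 876 counts in WT and to 1832 and 2466 in the KO-labelled libraries, a scaled ratio of 3.10. Alpha J segments summed to 30 and 60 against 109 and 142, a scaled ratio of 2.87. The V, J and C parts of the locus therefore moved by similar ratios, and V counts per 100 Trac counts were 30.7 and 35.3 in WT and 34.7 and 35.0 in the KO-labelled libraries. A count of at least 1 was found on 68 and 87 of the 102 alpha V segments in WT and on 94 and 96 in the KO-labelled libraries. After scaling, 67 of the 102 were higher in both KO-labelled libraries than in both WT libraries (27.3% of all genes) and 1 was lower in both (22% of all genes).

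No single alpha V segment dominated. The most counted one was Trav11 in all 4 libraries, with 6.51% and 8.19% of alpha V counts in WT and 6.37% and 4.41% in the KO-labelled libraries. The 5 most counted segments held 22.1% and 20.7% in WT and 18.4% and 17.3% in the KO-labelled libraries. Of the 5 leading alpha V segments in a library, 2 were shared between the WT libraries, 3 between the KO-labelled libraries, and 1 or 2 between libraries of different labels. The 3 were Trav11 and the copies Trav6-6 and Trav6d-6, which have identical coding sequences and identical split counts. The 3 and the 2 can therefore not be set against each other. Across the 102 segments, the Pearson correlation of log2 CPM (counts scaled to the library total) was 0.507 between the WT libraries, 0.601 between the KO-labelled libraries and 0.395 to 0.604 across labels. Points of such a correlation share reads among near-identical copies and rest on few counts each, and no order of the libraries can be read from these values.

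Trav11 is the V segment of the invariant receptor of mouse natural killer T (NKT) cells, where it is joined to Traj18. The genome holds a close copy, Trav11d, whose coding sequence did not differ from that of Trav11 over the 342 bases compared. The last 60 coding bases of both, from GENCODE M21 transcripts on mm10, are shown because reads over them cannot be assigned to 1 copy, and capitals mark the last in-frame cysteine codon, which precedes the joint with J. Trav11 lies at chr14:53519800-53519859 and Trav11d at chr14:52824853-52824912, both on the plus strand.
Trav11: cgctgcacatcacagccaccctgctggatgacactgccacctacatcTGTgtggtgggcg
Trav11d: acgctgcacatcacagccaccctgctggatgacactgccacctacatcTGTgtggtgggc

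Trav11 had 35.6 and 71.8 counts in WT and 117 and 109 in the KO-labelled libraries, where the deposited counts are fractional because a shared read is split. Its log2 fold change was 1.13 (SE 0.459, adjusted p = 0.135, edgeR's quasi-likelihood test), which did not pass the threshold. Summed with Trav11d, the pair had 43 and 87 counts in WT and 133 and 123 in the KO-labelled libraries, a scaled ratio of 2.04, below the 3.10 of all alpha V segments together. Mucosal-associated invariant T cells use Trav1, which was counted at 14 and 11 in WT and at 42 and 21 in the KO-labelled libraries. Its usual partner Traj33 had 0 and 0 against 2 and 5.

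Behind Trav11, the alpha V segments with the largest mean level were Trav7-4 (27.8 and 37.5 counts in WT, 63.9 and 73.1 in the KO-labelled libraries) and the pair Trav6-6 and Trav6d-6. These 2 copies had identical coding sequences over the 344 bases compared and identical counts, 8.15 and 13.0 each in WT and 54.5 and 77.6 each in the KO-labelled libraries. Summed, the pair's scaled ratio was 6.40, and Trav6-6 and Trav6d-6 were among the 5 leading alpha V segments in both KO-labelled libraries and in neither WT library. Neither copy reached the abundance filter. A total of 5 alpha segments had at most 3 counts in each WT library and at least 10 in each KO-labelled library, chosen here for that pattern after their values were seen. They were Trav19 (3 and 3 against 27 and 34), Trav21-dv12 (1 and 0 against 18 and 14), Trav5d-4 (0 and 1.20 against 18.4 and 36.7), Trav9n-4 (0.0625 and 0.29 against 14.6 and 30.6) and Traj31 (0 and 1 against 12 and 11). The share of all genes with this pattern and the number of segments with the reverse pattern were not counted, so no excess can be read from this list. A further pair of V segments on chromosome 14 carry RIKEN names, B230359F08Rik with 3 and 15 counts in WT and 4 and 0 in the KO-labelled libraries, and C920008G01Rik with at most 3.03 in any library.

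The 10 alpha V segments whose names mark them as shared with the delta chain summed to 69.9 and 40.1 counts in WT and to 148 and 211 in the KO-labelled libraries, a scaled ratio of 3.32. Of these 10, 6 were higher in both KO-labelled libraries than in both WT libraries (27.3% of all genes) and 1 was lower in both (22% of all genes). The lower one was Trav15d-1-dv6d-1, with 7.94 and 7 counts in WT against 0.0022 and 2. A V count alone does not show to which chain such a segment was joined.

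J segments join the V segment to the constant exon, and the 5 shown here are 50 to 66 bases long. Those with the largest mean level in alpha and beta, and the most counted gamma J segment, are shown because their short length sets how many reads can fall on them. Capitals mark the letters TTNGGNNNNGGN, read in the direction of transcription, which 33 of the 37 J segments (89.2%) held and which spell the conserved phenylalanine, glycine, any residue, glycine stretch of J. Trgj4 does not hold these letters and carries no capitals. They lie on the plus strand of mm10 at chr14:54200777-54200842 (Traj18), chr14:54181518-54181577 (Traj37), chr14:54187895-54187951 (Traj31), chr6:41542754-41542803 (Trbj2-1) and chr13:19342152-19342212 (Trgj4), with the letters from GENCODE M21 transcripts.
Traj18: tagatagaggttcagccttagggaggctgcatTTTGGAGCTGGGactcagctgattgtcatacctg
Traj37: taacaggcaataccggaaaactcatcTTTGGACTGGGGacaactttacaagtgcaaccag
Traj31: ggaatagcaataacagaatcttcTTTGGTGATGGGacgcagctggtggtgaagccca
Trbj2-1: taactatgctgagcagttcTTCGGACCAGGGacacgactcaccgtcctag
Trgj4: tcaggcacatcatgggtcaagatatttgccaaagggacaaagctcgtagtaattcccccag

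Traj18 was the most counted alpha J segment, with 7 and 11 counts in WT and 13 and 25 in the KO-labelled libraries. Traj37 had 0 and 6 against 10 and 11, and Traj31 had 0 and 1 against 12 and 11. All 28 alpha J segments had a count in the KO-labelled library 1 and 27 in KO-labelled 2, compared with 13 and 19 in the WT libraries. In beta, 7 J segments summed to 9 and 18 counts in WT and to 17 and 35 in the KO-labelled libraries, and the most counted, Trbj2-1, had 5 and 9 against 6 and 15, with groups that overlapped. Trbj2-4 followed with 0 and 3 against 4 and 5 and Trbj1-3 with 1 and 1 against 2 and 7. None of the J segments was abundant enough to be tested.

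The beta locus has a pair of constant genes, Trbc1 at 41538218 to 41539881 and Trbc2 at 41546730 to 41548352 on the plus strand of chromosome 6. Their coding sequences differed at 19 of the 500 bases compared, with 1 difference in the 375 bases of the first coding exon, so nearly all bases that tell them apart lie in the later exons. The stretch of 90 bases with most differences, coding bases 400 to 489, is shown with the differing letters in capitals, from GENCODE M21 transcripts at chr6:41539235-41539324 and chr6:41547778-41547867, plus strand.
Trbc1: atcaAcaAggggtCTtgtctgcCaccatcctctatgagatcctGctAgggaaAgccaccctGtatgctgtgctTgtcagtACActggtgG
Trbc2: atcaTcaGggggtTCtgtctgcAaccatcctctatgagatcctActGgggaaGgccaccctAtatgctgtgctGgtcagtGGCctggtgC

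Trbc1 had 4180 and 4052 counts in WT and 4953 and 6025 in the KO-labelled libraries, with a normalized count of 133 ± 6.84 (SD, n = 2) against 182 ± 14.2 (SD, n = 2). Its log2 fold change of 0.48 (SE 0.10, adjusted p = 0.0169, edgeR's quasi-likelihood test) passed the p threshold but not the 2-fold one. Trbc2 had 7417 and 7549 counts in WT and 7750 and 9254 in the KO-labelled libraries, a log2 fold change of 0.25 (SE 0.0896, adjusted p = 0.0987, same test). Trac counts per 100 counts of Trbc1 and Trbc2 together were 15.3 and 21.4 in WT and 41.5 and 46.1 in the KO-labelled libraries, so the balance of alpha to beta C counts did not overlap between labels. The adjusted p of Trbc1 was 0.0535 without WT 1, 0.0911 without WT 2 and 0.0684 without KO-labelled 2, and because near-identical copies share reads, the split between Trbc1 and Trbc2 is uncertain.

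Beta V segments summed to 594 and 982 counts in WT and to 1884 and 2214 in the KO-labelled libraries, a scaled ratio of 2.68 beside 1.24 for beta C. V counts per 100 C counts were 5.13 and 8.46 in WT and 14.8 and 14.5 in the KO-labelled libraries, with no overlap. After scaling, 19 of the 21 beta V segments were higher in both KO-labelled libraries than in both WT libraries, beside 27.3% of all genes. The exceptions were Trbv17, with 22 and 42 counts in WT and 28 and 22 in the KO-labelled libraries, and Trbv30, with 0 and 3 against 9 and 0.

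**Figure D3:**
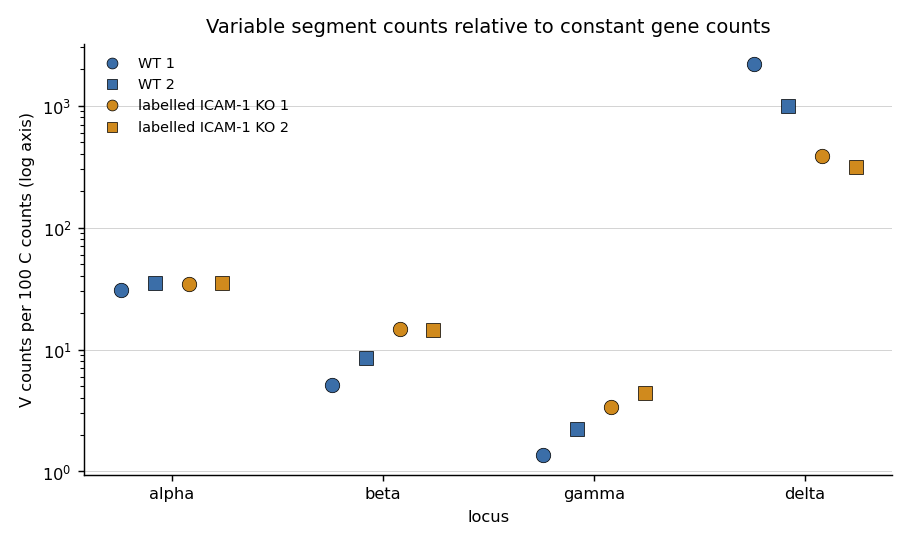
V counts per 100 C counts (log axis) of each locus, 1 point per library. In alpha the 4 libraries lay between 30.7 and 35.3; in beta and gamma both KO-labelled libraries lay above both WT libraries, and in delta below them.

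Among the 7 beta V segments tested, the most counted over the 4 libraries was Trbv13-2, at 41121396 to 41121832 on the plus strand of chromosome 6. It had 67 and 139 counts in WT and 280 and 354 in the KO-labelled libraries, with a normalized count of 3.33 ± 1.54 (SD, n = 2) against 10.5 ± 1.10 (SD, n = 2). Its log2 fold change was 1.69 (SE 0.358, adjusted p = 0.0176, edgeR's quasi-likelihood test), and it took 11.3% and 14.1% of beta V counts in WT and 14.9% and 16.0% in the KO-labelled libraries. Trbv5 had 56.4 and 50 counts in WT and 171 and 181 in the KO-labelled libraries, a log2 fold change of 1.80 (SE 0.388, adjusted p = 0.0188, same test). Trbv5 overlaps 5830405F06Rik, a long intergenic RNA on the same strand with 1.58 and 0 counts in WT and 9.11 and 11.0 in the KO-labelled libraries, so a part of its reads may be shared. Trbv13-1 had 46 and 50 counts in WT and 147 and 125 in the KO-labelled libraries, a log2 fold change of 1.57 (SE 0.425, adjusted p = 0.0417, same test). Without WT 1 the adjusted p was 0.0802 for Trbv13-2, 0.0659 for Trbv5 and 0.126 for Trbv13-1. Without WT 2 it was 0.0276, 0.0883 and 0.131, and Trbv13-1 also missed the threshold without either KO-labelled library (0.139 and 0.0564).

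The last 60 coding bases of the 2 beta V segments with the smallest adjusted p are shown to mark where the J segment is attached, with the last in-frame cysteine codon in capitals, at chr6:41121773-41121832 and chr6:41062744-41062803 on the plus strand (GENCODE M21 transcripts, mm10).
Trbv13-2: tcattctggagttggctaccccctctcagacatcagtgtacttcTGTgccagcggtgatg
Trbv5: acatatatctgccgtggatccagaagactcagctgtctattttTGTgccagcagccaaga

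The other 4 beta V segments tested did not pass the threshold with edgeR. Trbv1 had 81 and 70 counts in WT and 167 and 169 in the KO-labelled libraries, a log2 fold change of 1.22 (adjusted p = 0.0577, edgeR's quasi-likelihood test), while DESeq2 called it at an adjusted p of 0.04998. Trbv12-2, the most counted beta V segment in WT 1, had 92 and 52 counts in WT and 129 and 161 in the KO-labelled libraries (log2 fold change 1.07, adjusted p = 0.121, edgeR). Trbv3 had 39 and 96 against 133 and 160, and Trbv16 had 22 and 117 against 119 and 150, with the WT libraries far apart in both. The untested segments showed a similar spread between pools: Trbv15 had 7 and 30 counts in WT and 52 and 168 in the KO-labelled libraries, and Trbv2 had 3 and 34 against 103 and 92.

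**Figure D4:**
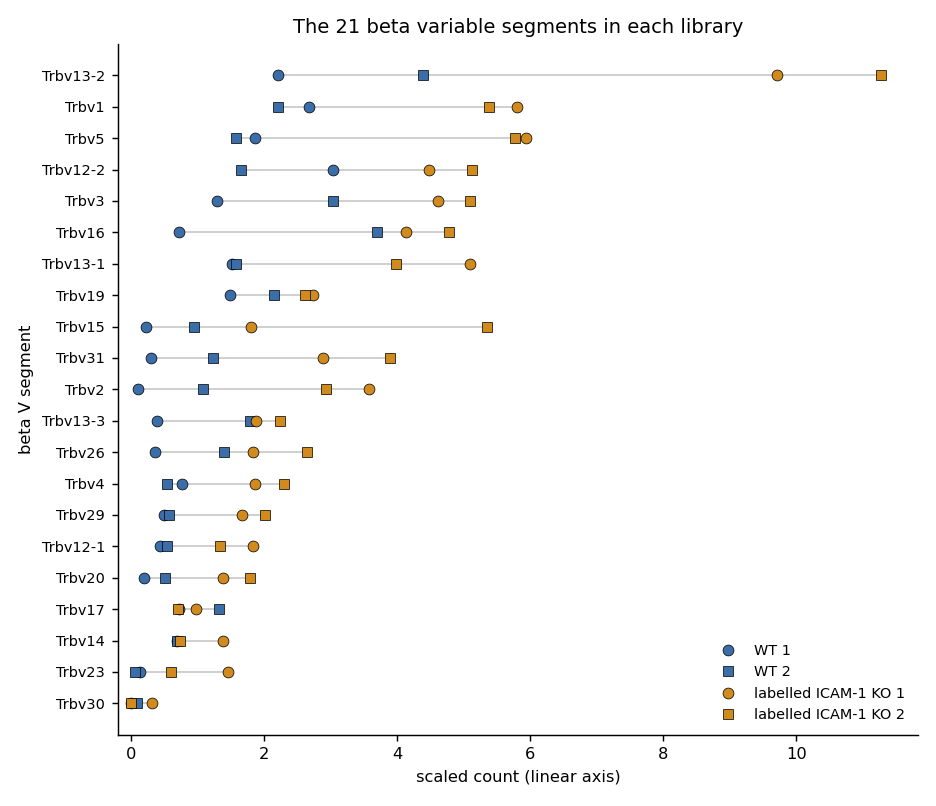
Scaled count (linear axis) of the 21 beta V segments in each library, ordered by their mean. Trbv13-2 had the highest level in 3 of the 4 libraries and Trbv12-2 in WT 1, and for Trbv17 and Trbv30 the groups overlapped.

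Across the 21 beta V segments, log2 CPM correlated at 0.904 (Pearson) and 0.875 (Spearman) between the KO-labelled libraries and at 0.717 and 0.699 between the WT libraries. Correlations across labels were 0.666 to 0.796 (Pearson). The WT libraries had fewer beta V counts, so counting error was larger there, and the values are a description over segments that share a library. The 5 most counted beta V segments held 57.6% and 49.9% of beta V counts in WT and 47.7% and 46.6% in the KO-labelled libraries. Trbv13-2 and Trbv1 were among the 5 leading segments in all 4 libraries and were the 2 shared between the WT libraries, while the KO-labelled libraries shared 3, with Trbv5 added.

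The gamma locus has 4 constant genes in the table, listed as Tcrg-C1 to Tcrg-C4, each lying behind its own V and J segments. Tcrg-C1, Tcrg-C2 and Tcrg-C3 are near copies, with 9 and 13 differences from Tcrg-C1 in 330 bases of the first coding exon, and Tcrg-C4 has 59. The first 90 coding bases of Tcrg-C1, Tcrg-C2 and Tcrg-C4 are shown with differences from Tcrg-C1 in capitals, since such differences set which reads can be assigned to a single gene. They lie at chr13:19214103-19214192 (plus strand), chr13:19307462-19307551 (minus strand) and chr13:19344558-19344647 (plus strand) of mm10, with the letters from GENCODE M21 transcripts.
Tcrg-C1: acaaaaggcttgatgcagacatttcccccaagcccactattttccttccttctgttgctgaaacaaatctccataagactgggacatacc
Tcrg-C2: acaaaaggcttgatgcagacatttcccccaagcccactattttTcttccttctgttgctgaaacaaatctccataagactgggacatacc
Tcrg-C4: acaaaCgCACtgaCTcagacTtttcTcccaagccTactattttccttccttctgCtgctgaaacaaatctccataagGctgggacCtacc

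Tcrg-C4 carried most of the gamma counts, with 4534 and 4271 in WT and 4641 and 4583 in the KO-labelled libraries. Its normalized count was 142 ± 10.2 (SD, n = 2) in WT and 154 ± 10.7 (SD, n = 2) in the KO-labelled libraries, with a log2 fold change of 0.13 (SE 0.0989, adjusted p = 0.399, edgeR's quasi-likelihood test) and groups that overlapped after scaling. Tcrg-C1 had 527 and 429 counts in WT and 486 and 694 in the KO-labelled libraries, also overlapping (log2 fold change 0.36, adjusted p = 0.321, same test). Tcrg-C2 had 87.0 and 113 against 168 and 205, a log2 fold change of 0.96 (SE 0.344, adjusted p = 0.0951, same test) that did not pass. Tcrg-C3 had at most 1.42 counts in WT and at most 8.09 in the KO-labelled libraries, and how reads were divided among Tcrg-C1 to Tcrg-C3 is uncertain. The 3 together had 614 and 543 counts in WT and 654 and 907 in the KO-labelled libraries.

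Gamma V segments summed to 70 and 107 counts in WT and to 178 and 241 in the KO-labelled libraries, a scaled ratio of 2.43 beside 1.11 for gamma C. V counts per 100 C counts were 1.36 and 2.22 in WT and 3.36 and 4.39 in the KO-labelled libraries, the lowest of the 4 loci in every library. Trgv2, whose C gene is Tcrg-C2, was the most counted gamma V segment in all 4 libraries, with 33.9 and 46 counts in WT and 78 and 76.7 in the KO-labelled libraries. Tcrg-V1, which lies before Tcrg-C4, had 2.07 and 22.6 in WT and 32.8 and 36.5 in the KO-labelled libraries, beside 4271 to 4641 on Tcrg-C4 itself. Tcrg-V4 and Tcrg-V6 are V segments of gamma-delta T cells in tissues such as the lung. Tcrg-V4 had 17 and 17 counts against 25 and 51, and Tcrg-V6 had 3 and 12 against 15 and 32. Tcrg-V5, the V segment of epidermal gamma-delta T cells, was counted at 13 and 5 against 25 and 30. Tcrg-V7 had at most 1 count in any library and Tcrg-V3 at most 14.8. Tcrg-V4 to Tcrg-V7 overlap Gm31887, an antisense gene with 16 to 28 counts per library, and without strand information such reads cannot be told apart. The gamma J segments were Trgj4, with 17 and 17 counts in WT and 9 and 14 in the KO-labelled libraries, and Trgj2, with 3 and 1 against 7 and 2. Trgj4, which belongs to the same cluster as Tcrg-C4, was 1 of the 2 receptor segments that lay higher in both WT libraries.

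Trdc, the constant gene of the delta chain, lies on the plus strand of chromosome 14 from 54142851 to 54148868. It had 17 and 35 counts in WT and 118 and 148 in the KO-labelled libraries, a normalized count of 0.867 ± 0.386 (SD, n = 2) against 4.44 ± 0.436 (SD, n = 2). Its log2 fold change of 2.42 (SE 0.504, adjusted p = 0.0166, edgeR's quasi-likelihood test) passed both thresholds. The mean in WT lay under the filter minimum of 1, so Trdc was tested only through its level in the KO-labelled libraries. By the summed minimum of 10, the same held for Trbv5 and Trbv13-1. Without WT 1 the adjusted p was 0.0792 and without WT 2 it was 0.0509. Trdc overlaps genes on the other strand, Trdv5, which had 0 counts, and Gm43434, which has no row under that name in the count table. Counted per kilobase of exon, which allows genes to be compared, Trdc was below all other C genes except Tcrg-C3, with a mean scaled level of 0.678 per kilobase over the 4 libraries beside 379 for Trbc2, 210 for Trbc1, 150 for Tcrg-C4, 146 for Trac, 18.9 for Tcrg-C1, 5.15 for Tcrg-C2 and 0.116 for Tcrg-C3.

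Delta V counts came almost entirely from Trdv4, at 54074905 to 54075515 of chromosome 14, with 362 and 337 counts in WT and 414 and 427 in the KO-labelled libraries. Trdv4 held 96.3% and 97.4% of delta V counts in WT and 90.0% and 92.2% in the KO-labelled libraries. Its log2 fold change of 0.33 (SE 0.223, adjusted p = 0.351, edgeR's quasi-likelihood test) did not pass, although both KO-labelled libraries lay above both WT libraries. Trdv4 therefore had more counts than Trdc in every library, at 2129 and 963 Trdv4 counts per 100 Trdc counts in WT and 351 and 289 in the KO-labelled libraries. Per kilobase of exon its mean scaled level was 28.5. The antisense gene Gm30275, which overlaps Trdv4, had 1 to 4 counts per library. The last 60 coding bases of Trdv4, at chr14:54075456-54075515 on the plus strand (GENCODE M21 transcripts, mm10), are shown because this segment is the most counted V segment of any locus, with the cysteine codon before the joint in capitals.
Trdv4: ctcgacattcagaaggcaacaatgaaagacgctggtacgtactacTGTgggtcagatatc

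The other delta V segments were sparse. Without Trdv4 they summed to 14 and 9 counts in WT and to 45.8 and 36 in the KO-labelled libraries, a scaled ratio of 3.66 beside 5.28 for Trdc and 1.31 for all delta V segments. Trdv1 had 4 and 7 counts in WT and 18 and 23 in the KO-labelled libraries, Trdv2-2 had 10 and 2 against 21.8 and 11.8, and Trdv2-1 had 0 and 0 against 6.05 and 1.21.

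Genes of the receptor complex and of T cells were set beside these values, from lists chosen with earlier results of these data known. Of the 4 CD3 chain genes, which carry the receptor to the surface and signal for it, 1 was called higher. Cd3d had 579 and 1190 counts in WT and 2052 and 2695 in the KO-labelled libraries (log2 fold change 1.49, adjusted p = 0.00796, edgeR's quasi-likelihood test). Cd247 had 666 and 1409 against 1539 and 1712 (0.72, adjusted p = 0.0995), Cd3e had 933 and 1599 against 1079 and 1636 (0.17, adjusted p = 0.690), and Cd3g had 3438 and 4017 against 2336 and 3359 (-0.33, adjusted p = 0.158). The summed CD3 chain counts were 5616 and 8214 in WT and 7005 and 9402 in the KO-labelled libraries, so those groups overlapped. Trac counts per 100 CD3 chain counts were nearly the same within each label, 31.7 and 30.3 in WT and 75.3 and 75.0 in the KO-labelled libraries. Beta C counts per 100 CD3 chain counts were 206 and 141 against 181 and 163, with groups that overlapped.

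**Figure D5:**
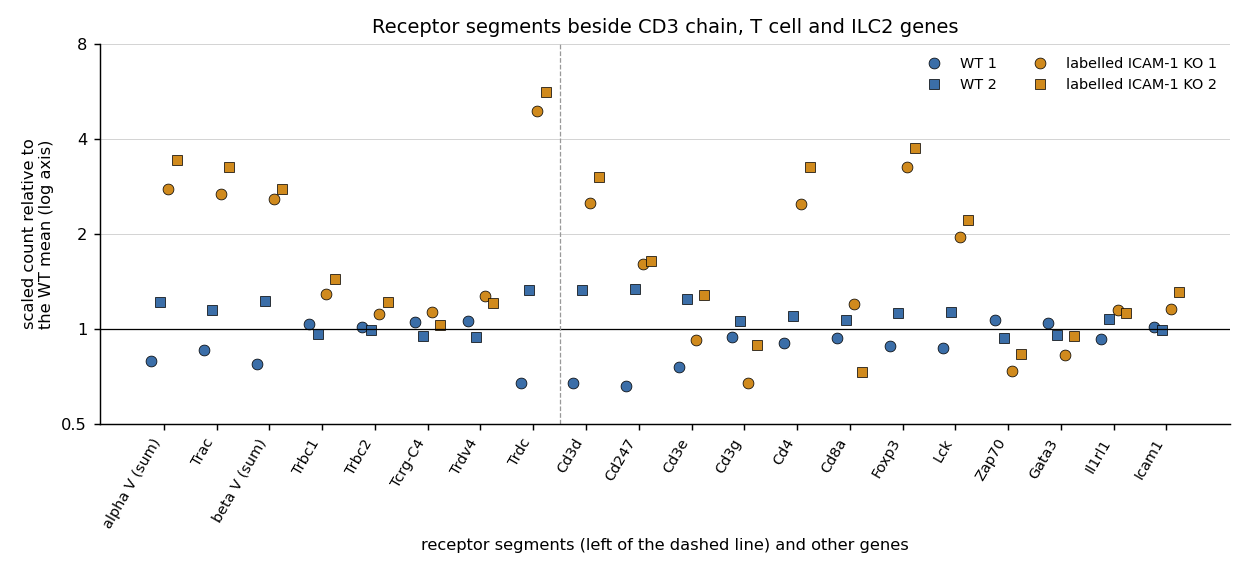
Scaled count of receptor segments (left of the dashed line) and other genes in each library, relative to the mean of the WT libraries (log axis). Alpha V, Trac, beta V and Trdc lay high in both KO-labelled libraries together with Cd3d, Cd4, Foxp3 and Lck. Tcrg-C4, Cd3e, Cd8a, Gata3 and Il1rl1 stayed near the WT mean or overlapped it. Cd3g and Zap70 lay below both WT libraries in both KO-labelled libraries (log2 fold change -0.33 and -0.32), without passing the threshold.

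Of the 12 T cell coreceptor and surface genes tested, 6 were called higher and 0 lower (Cd4, Cd5, Cd6, Cd2, Cd28 and Trat1), where calls over all genes tested were 4.94% higher and 0.538% lower, the background for each list below as well. The list had a median log2 fold change of 1.13 beside 0.01 for all genes tested. Helper and regulatory T cells carry the coreceptor Cd4, which was counted at 675 and 862 in WT and at 1770 and 2527 in the KO-labelled libraries (log2 fold change 1.55, adjusted p = 0.00143, edgeR's quasi-likelihood test). Cd8a, the coreceptor of cytotoxic T cells, had 116 and 138 against 142 and 94 (-0.04, adjusted p = 0.962, same test), and Cd8b1 had 170 and 257 against 405 and 253 (0.70, adjusted p = 0.208). Ctla4 and Icos, the most counted genes of this list, did not pass either. The summed scaled level of the list was 815 and 1062 in WT and 1276 and 1467 in the KO-labelled libraries.

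Of the 9 regulatory T cell genes, 3 were called higher, namely Foxp3, Ikzf2 and Lrrc32, and 0 lower, with a median log2 fold change of 0.35. Regulatory T cells are defined by the transcription factor Foxp3, which was counted at 1282 and 1703 in WT and at 4528 and 5673 in the KO-labelled libraries (log2 fold change 1.84, adjusted p = 0.00022, edgeR's quasi-likelihood test). Il2ra, Capg and Ctla4, the most counted members, were not called, and 3 members had an adjusted p under 0.05 at less than 2-fold: Itgae (log2 fold change 0.89) and Nrp1 (0.35) higher and Il2ra (-0.51) lower. The summed level of this list was 1916 and 2216 in WT and 2066 and 2172 in the KO-labelled libraries.

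Among the 13 genes of proximal T cell receptor signalling, Lck, the kinase that phosphorylates the CD3 chains, and Themis were called higher and 0 were lower, with a median of 0.26. Lck had 2504 and 3385 counts in WT and 5334 and 6581 in the KO-labelled libraries (log2 fold change 1.08, adjusted p = 0.00192, edgeR's quasi-likelihood test), while Zap70, which binds the phosphorylated CD3 chains, had 3187 and 2897 against 2090 and 2576 (-0.32, adjusted p = 0.106, same test). Ptprc, the most counted of the list, fell short of 2-fold (log2 fold change 0.39, adjusted p = 0.0138, same test), and the summed level was 2205 and 2208 against 2599 and 2671. With no fold threshold, 6 of the 13 were higher at an adjusted p under 0.05 and 0 lower, beside 8.8% of genes tested higher. Genes that assemble receptor genes were low or did not pass the test: Rag2 had 0 and 0 counts in WT and 13.3 and 0 in the KO-labelled libraries, Dntt had 8 and 12 against 3 and 0, and Ptcra, the partner of a new beta chain in the thymus, had 5 and 5 against 9 and 1. Of that list of 8, 7 genes have a row in the table, 4 were tested and 0 were called (edgeR), with a summed level of 54.1 to 60.7.

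Markers of other cells were called as well. Of the 8 gamma-delta T cell genes, 1 (Blk) was called higher, with a summed level of 96.2 and 96.4 in WT and 123.6 and 126.8 in the KO-labelled libraries, and Maf, the most counted, had a log2 fold change of 0.18 (adjusted p = 0.312, edgeR's quasi-likelihood test). Of the 5 NKT and mucosal-associated invariant T cell genes, Slamf6 and Slamf1 were called higher, and the list had a median log2 fold change of 0.80. Cxcr6, the most counted, was the only member with a negative log2 fold change (-0.52, adjusted p = 0.00470, edgeR's quasi-likelihood test). The summed level, most of it from Cxcr6, went from 672 and 693 in WT to 533 and 526 in the KO-labelled libraries. Among naive T cell genes, Tcf7, a transcription factor that ILC2s also use, was called higher, with 1183 and 957 counts in WT and 2319 and 2151 in the KO-labelled libraries (log2 fold change 1.13, adjusted p = 0.00290, edgeR's quasi-likelihood test). Among B cell genes, Ms4a1, which encodes CD20, was called higher, with 1056 and 1314 counts against 2546 and 1980 (1.01, adjusted p = 0.00791, same test). Cd79a, a chain of the B cell receptor complex, had 1357 and 1254 counts against 2009 and 1853 (0.63, adjusted p = 0.0175, same test), short of the 2-fold threshold. Of 3 natural killer cell genes tested out of 6, Klrb1c was called higher, and the summed level of 15.0 and 28.3 in WT and 36.1 and 27.7 in the KO-labelled libraries overlapped. Of the 14 ILC2 genes, Il13 was called lower and 0 higher, with a median of -0.10 and a summed level of 8401 and 8952 against 6866 and 7067. With no fold threshold, 5 were lower at an adjusted p under 0.05 with edgeR: Il13, Il5 (log2 fold change -0.76), Arg1 (-0.65), Id2 (-0.56) and Il2ra (-0.51). The share of all genes tested that was lower at this criterion was not counted, so no excess can be read from these 5. Klrg1 (0.41) was higher at an adjusted p under 0.05, a criterion that 8.8% of genes tested met in that direction. In a bulk library, more cells of a type and more RNA per cell cannot be told apart, and the part of any of these cell types in the receptor counts was not tested.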

How the data were processed

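RNA of sorted lung ILC2s was measured in 2 WT libraries and 2 libraries labelled ICAM-1 KO, grouped by the sample titles. The authors used STAR for alignment to mm10, with gene models of GENCODE M20, and quantified genes in Partek; the submitters' processing notes also name CASAVA 1.8.2 and STAR 3.5.3. The deposited expected counts are estimated per gene and not normalized, reads that fit several genes are split, and 49.2% of the receptor values above 0 are whole (within 0.001). Whether counting used strand is not stated. The deposited normalized signal, made by the authors with upper quartile scaling, equals the count plus 1 times 1 factor per library (0.0330, 0.0317, 0.0347 and 0.0319); it covers 124 of the 180 segments. Reads carry no molecular identifiers, so precision from depth covers counting error only.

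Here, counts were rounded and tested with edgeR 4.0.16 in R 4.3.3 (quasi-likelihood test, legacy = FALSE, upper quartile factors, no covariate) on 11711 genes whose normalized counts had a mean of 1 or more and a sum of 10 or more, with Benjamini-Hochberg adjustment over these genes and calls at an adjusted p under 0.05 and at least 2-fold. The differential test named in the study's methods, GSA in Partek, was not run. Alternatives were DESeq2 1.42.0, limma 3.58.1, TMM factors, other filters, a replicate block, the older quasi-likelihood method and leaving out each library. The fit was tested on simulated data. Sums over segments were multiplied by the authors' factors (scaled counts) and were not tested. Coordinates of all 180 segments equal GENCODE M21, the source of exon lengths and sequences, with the deposited end moved by 1 base. The table's Tcrg-C and Tcrg-V symbols were counted as gamma, and 2 RIKEN-named V segments as alpha by their position.

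Members and lists were chosen with earlier results of these data known. Named genes were all C genes, the 3 V and 3 J segments of each locus with the largest mean level, up to 5 called segments with the smallest adjusted p, segments of invariant or subset-typical receptors, and of the other lists the CD3 chains, coreceptors, recombination genes, Foxp3, Icam1 and up to 3 of the most counted members; other names were chosen after their values were seen, and some list members are not reported here. Replicate numbers are shared between labels, and the labels do not say whether they pair the samples, so no pairing was used. Deviations of same-numbered libraries correlated at -0.036 over 11711 genes. This value shows no sign of pairing, but with so few libraries it cannot exclude pairing.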

Additional observations from a re-analysis of the deposited data

How the results depend on the processing

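Of the 5 segments called higher, Trac alone was called with no filter on low counts (1 called, 179 segments tested) and with at least 10 counts summed over the libraries (1 called, 156 tested, chosen after seeing the data); these filters test 22158 and 20221 genes, and over all genes 312 and 369 were called in place of 641. Leaving out each library in turn, which assumes that the lone library of a label varies like the others, gave 1 to 4 called segments. The other settings gave 4 to 7, among them 6 with DESeq2 and 7 with filterByExpr, of which 4 were shared with the 5. With the replicate number as a block, 4 segments were called, without Trbv13-1 (adjusted p = 0.0565, edgeR's quasi-likelihood test). The labels do not say whether the numbers pair the samples. The segments called lower were 0 in each setting.

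Scaled to the CD3 chain counts (chosen after seeing the data), the ratio was 2.46 for alpha, 1.07 for beta, 1.27 for delta and 0.909 for gamma, the only direction that reversed; the cause was not tested. Without segments that overlap another gene, delta is left with Trdv1 alone and its ratio was 3.84. Under TMM factors, DESeq2 size factors or library totals, all 4 ratios moved by less than the spread between libraries. Of 192 alternative values of the named segments, 166 kept their side of the adjusted p threshold, 25 no longer passed it and 1 newly passed it. The 166 include segments that passed neither in the main fit nor in the alternative, so they do not measure how well the calls held. All 25 losses fell on Trdc, Trbc1, Trbv13-2, Trbv5 and Trbv13-1, while Trac had none. Depth limits the J segments and most V segments, which were too sparse to test.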

Other observations

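The count table also holds 4 receptor rows annotated as V pseudogenes, which lie outside the 180 segments. Trbv24 was counted at 3 and 0 in WT and at 9 and 10 in the KO-labelled libraries. Trav8-2 had 0 and 1.12 against 2.68 and 3.36, Trav13-3 had 1.53 and 0.0216 against 0 and 8.90, and Trav4d-2 had 4.07 counts in KO-labelled 2 and 0 in the other 3 libraries. At these counts no difference can be read for any of them.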
